A study of Mus musculus with 6 samples.

Results

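The vacuolar proton pump is a rotary machine that acidifies lysosomes and endosomes in every cell and, at high density in the plasma membrane of intercalated cells of the kidney collecting duct, secretes acid into the urine. Its V1 sector in the cytosol splits ATP and its V0 sector in the membrane carries the protons. Several of its subunits exist as paralogues, with 1 form found in most cells and another largely restricted to intercalated cells and a few other acid-secreting cells. Loss of the B1 or a4 form causes distal renal tubular acidosis in humans. The genes described here are 10 of 22180 genes measured. They were taken by name as 5 paralogue pairs, each with its intercalated-type form first: Atp6v1b1 and Atp6v1b2 for the B subunit, Atp6v1g3 and Atp6v1g1 for G, Atp6v1c2 and Atp6v1c1 for C, Atp6v0a4 and Atp6v0a1 for a, and Atp6v0d2 and Atp6v0d1 for d. All 10 were measured, through the brightest transcript cluster that names only that gene.

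RNA of adult mouse kidney was hybridised to Affymetrix mouse gene arrays, with 1 array per sample. The arrays labelled Pax28 dKO (replicates 1, 3 and 5) come from mice homozygous for floxed Pax2 and Pax8 alleles that carry the tamoxifen-inducible Rosa26CreER, which is active in many cell types. The Control arrays (replicates 2, 4 and 6) come from Cre-negative mice. All mice of both groups had tamoxifen (50 mg/kg, 3 injections on successive days) when 8 weeks old and a repeat course when 10 weeks old. Tissue was collected 14 days after the final dose. Each group had 2 females and 1 male, and the males were dKO 1 and Control 4. The labels do not say that each array is a separate animal, so p-values here cover the spread among these arrays, which may be technical.

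The targeted genes did not bear out the labels. Pax8 stood between 10.11 and 10.59 log2 on the arrays labelled dKO, against 8.89 to 9.09 on Control arrays, a rise of 1.36 ± 0.12 (SE; limma adjusted p = 0.0037). Pax2 stood at 6.11, 6.49 and 6.16 against 6.09, 5.77 and 6.08 and did not pass (adjusted p = 0.189). A probe outside the deleted exons checks nothing, and where these probes lie was not analysed here. Every direction given is therefore that of the arrays labelled dKO. The kidney markers Umod, Slc12a1 and Slc34a1 stood at 10.8 log2 or more on every array. Control 2 and Control 6 stood apart in the brown fat markers Ucp1, Cidea and Plin1. Ucp1 was at 5.12, 4.74 and 3.87 log2 on the arrays labelled dKO and at 7.77, 3.53 and 7.53 on Control arrays. Adipoq and Fabp4 of the same list did not set them apart. In that order, dKO 3 stood at 5.44 and 9.64, Control 2 at 5.52 and 9.99, and Control 6 at 5.49 and 9.54. Over all genes, 7.20% passed the test between the groups at an adjusted p under 0.05, 3.08% lower and 4.12% higher on the arrays labelled dKO.

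None of the 10 paralogues passed (limma adjusted p between 0.105 and 0.883). At an unadjusted p under 0.05 there were 3 of the 10, Atp6v1b1, Atp6v0a4 and Atp6v1b2, each lower on the arrays labelled dKO, where 22.0% of all genes reached that level in either direction. The log2 difference was below 0 for 8 of the 10 and for 11442 of all 22180 genes. Its median was -0.25 over the 5 intercalated-type genes and -0.17 over the 5 ubiquitous genes, beside -0.01 over all genes. On the brightest cluster of each gene, the 95% intervals of the 10 reached at most to -0.54 and 0.34 on the log2 scale, which is 0.689 and 1.26 times the level on Control arrays. Dimmer clusters of Atp6v1b2 and Atp6v1g1 gave larger and less certain differences, given with the counts of overlap. Since whole kidney was measured, fewer cells of a type and less RNA per cell cannot be told apart.

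**Figure D1:**
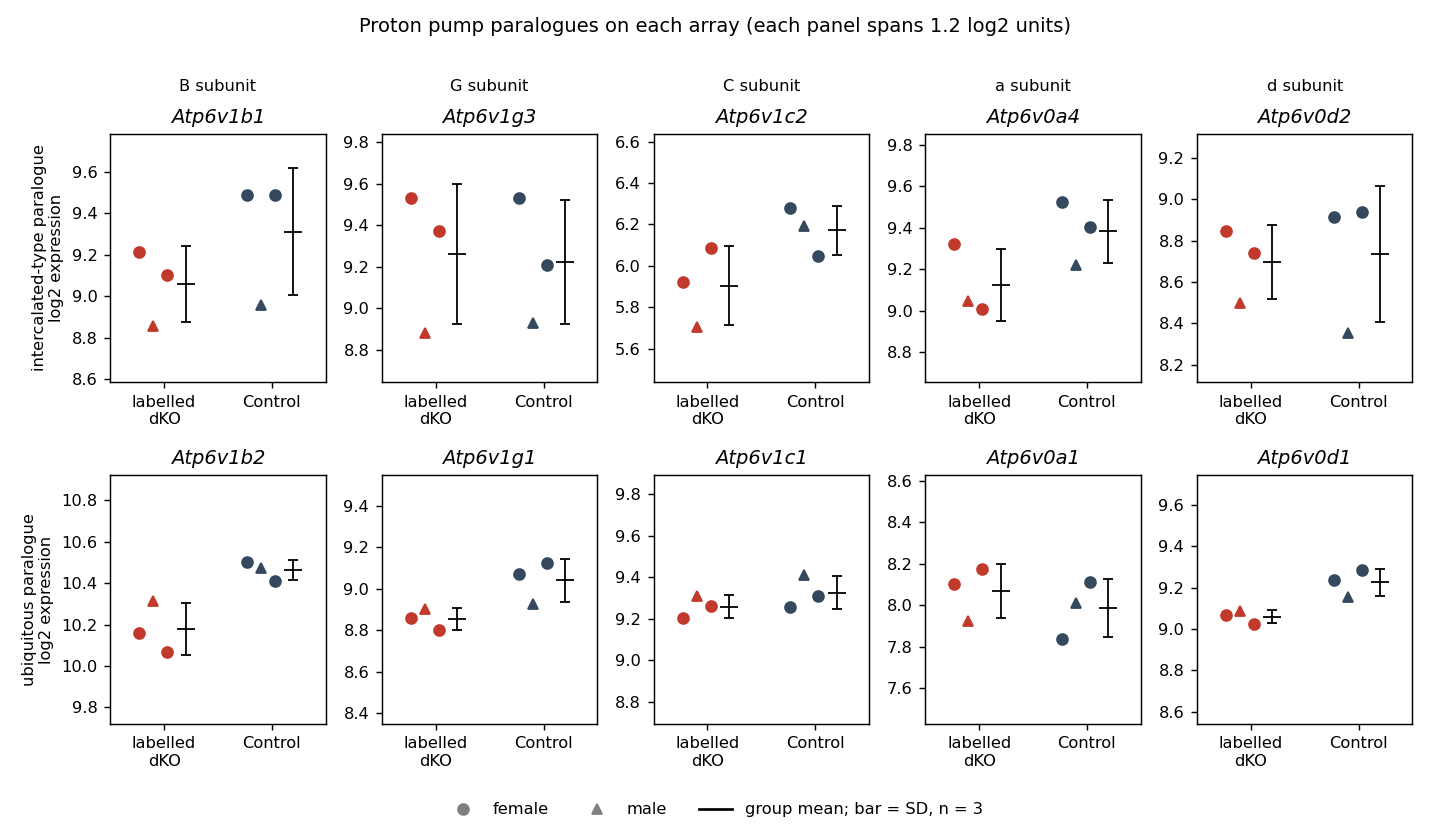
Log2 expression of the 10 proton pump paralogues on each of the 6 arrays, with the arrays labelled dKO on the left and Control arrays on the right of each panel, circles for females, triangles for males, and black marks for the group mean with SD (n = 3). In the upper row both males lie below all females for Atp6v1b1, Atp6v1g3 and Atp6v0d2, and Atp6v1b2, Atp6v1g1 and Atp6v0d1 in the lower row have groups that do not overlap.

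The promoters bear on 2 ways in which these genes are known to be controlled. In mice the forkhead factor Foxi1 is needed for intercalated cells and activates their pump subunits, and the lysosomal regulator TFEB binds a palindromic site, called CLEAR, in ubiquitous pump promoters. RefSeq promoter sequences of build GRCm38.p6, 250 bases before to 50 after the start, were at hand for 6 of the 10 genes, 4 of the intercalated type and 2 ubiquitous. Each was searched on both strands for the forkhead core TGTTTAC, the CLEAR core TCACGTG and the core of paired-domain sites of the Pax2 and Pax8 kind, GCGTGAC. The forkhead core occurred in 1 of these 6, Atp6v1b1, where it begins 98 bases before the start, and it occurs in 3.65% of all 32851 promoters. The CLEAR core occurred in 1 of the 6, Atp6v0d1, within the palindrome TCACGTGA that begins 4 bases before the start. This core occurs in 3.77% of all promoters. The Pax core occurred in none of the 6 and in 2.09% of all promoters. Over all 27 pump genes with a promoter sequence it occurred in 3, Atp6v1a, Atp6v0e and Dmxl2. A gene was counted if any of its promoters held the core. Both promoters with a match among the 6 are printed 5′ to 3′ on the gene's strand, with the match in capitals. That of Atp6v1b1 lies at chr6:83742767-83743066 on the plus strand and that of Atp6v0d1 at chr8:105566015-105566314 on the minus strand.
Atp6v1b1: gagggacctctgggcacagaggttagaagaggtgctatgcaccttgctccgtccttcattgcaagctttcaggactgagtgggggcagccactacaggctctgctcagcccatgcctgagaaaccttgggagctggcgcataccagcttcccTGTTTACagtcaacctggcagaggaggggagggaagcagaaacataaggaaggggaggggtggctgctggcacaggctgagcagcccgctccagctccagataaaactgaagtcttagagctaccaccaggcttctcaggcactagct
Atp6v0d1: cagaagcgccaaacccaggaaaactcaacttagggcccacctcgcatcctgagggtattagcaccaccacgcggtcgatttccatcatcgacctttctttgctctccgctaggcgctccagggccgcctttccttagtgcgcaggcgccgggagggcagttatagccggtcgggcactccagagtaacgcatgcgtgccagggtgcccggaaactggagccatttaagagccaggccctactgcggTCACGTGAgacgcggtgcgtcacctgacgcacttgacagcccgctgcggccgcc

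The B subunit forms the ATP-binding ring of V1 together with the A subunit, and B1 is the form of intercalated cells. Atp6v1b1 (Entrez gene 110935) stood at 8.86, 9.22 and 9.10 log2 on the arrays labelled dKO and at 9.49, 8.96 and 9.49 on Control arrays. The groups overlapped, because the male Control array lay below both female arrays labelled dKO. Within each sex the arrays labelled dKO were the lower ones, by 0.33 between the females and by 0.10 between the males. The highest Control values were those of Control 2 and Control 6, the arrays highest in the brown fat marker Ucp1. The part of brown fat in these values was not tested. The sex-adjusted log2 difference was -0.25 ± 0.09 (SE; 95% interval -0.46 to -0.05), and it did not pass (adjusted p = 0.147). It was -0.23 without Control 2 and -0.23 without Control 6. Its ubiquitous paralogue Atp6v1b2 (Entrez gene 11966) stood at 10.32, 10.16 and 10.07 against 10.50, 10.48 and 10.41. Here all 3 arrays labelled dKO lay below all 3 Control arrays. The log2 difference was -0.28 ± 0.09 (interval -0.49 to -0.08), which had the smallest p of the 10 genes and also did not pass (adjusted p = 0.105). With limma's trended robust prior in place of the default it passed (adjusted p = 0.032). That prior called 2162 of all 22180 genes, against 1596 with the default.

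The G subunit is part of the peripheral stalk that holds the V1 ring still, and G3 is a kidney form. Atp6v1g3 (Entrez gene 338375) stood at 8.88, 9.53 and 9.37 log2 on the arrays labelled dKO and at 9.53, 8.93 and 9.21 on Control arrays. Both groups covered nearly the same range, and the log2 difference was 0.04 ± 0.11 (interval -0.23 to 0.30; adjusted p = 0.883). Its sign turned when dKO 3 or Control 6 was left out (-0.019 and -0.066). The ubiquitous Atp6v1g1 (Entrez gene 66290) stood at 8.90, 8.86 and 8.80 against 9.07, 8.93 and 9.13. Its groups did not overlap, although dKO 1 and Control 4, the males, lay close together. It differed by -0.19 ± 0.09 on the log2 scale (adjusted p = 0.279).

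The C subunit connects the stalks to the V0 sector and is lost when the pump is switched off by disassembly. Atp6v1c2 (Entrez gene 68775), the C form of the intercalated type, stood at 5.71, 5.92 and 6.09 log2 on the arrays labelled dKO and at 6.28, 6.19 and 6.05 on Control arrays. The highest array labelled dKO lay above the lowest Control array. Its log2 difference was -0.27 ± 0.11 (interval -0.54 to 0.0022; adjusted p = 0.231), and it was larger between the males, -0.48, than between the females, -0.16. Its ubiquitous paralogue Atp6v1c1 (Entrez gene 66335) stood at 9.31, 9.20 and 9.26 against 9.26, 9.41 and 9.31, with overlapping groups. Between the groups it differed by -0.07 ± 0.08 on the log2 scale (adjusted p = 0.674).

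The a subunit lines the path of the protons through V0 and steers the pump to its membrane. Atp6v0a4 (Entrez gene 140494), its intercalated form, stood at 9.05, 9.32 and 9.01 log2 on the arrays labelled dKO and at 9.53, 9.22 and 9.40 on Control arrays. The groups overlapped between dKO 3 and Control 4, and within each sex the arrays labelled dKO were lower. Its log2 difference was -0.26 ± 0.11 (interval -0.51 to -0.0017; adjusted p = 0.224). The ubiquitous Atp6v0a1 (Entrez gene 11975) stood at 7.92, 8.10 and 8.18 against 7.84, 8.01 and 8.11. Its groups overlapped and the log2 difference was 0.08 ± 0.11 (adjusted p = 0.728), with the opposite sign when Control 2 was left out (-0.021).

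The d subunit couples the turning shaft of V1 to the ring of V0. Atp6v0d2 (Entrez gene 242341), which mouse osteoclasts and macrophages also express, stood at 8.50, 8.85 and 8.74 log2 on the arrays labelled dKO and at 8.91, 8.36 and 8.94 on Control arrays. The lowest value of each group was its male, and the groups overlapped. The log2 difference was -0.04 ± 0.09 (interval -0.26 to 0.18; adjusted p = 0.850), with the opposite sign when dKO 5 was left out (0.016). The ubiquitous Atp6v0d1 (Entrez gene 11972) stood at 9.08, 9.07 and 9.02 against 9.24, 9.16 and 9.28. These groups did not overlap, and the log2 difference was -0.17 ± 0.08 (interval -0.35 to 0.02; adjusted p = 0.279).

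In all, 3 of the 10 genes had groups that did not overlap, all ubiquitous and all lower on the arrays labelled dKO. Among all genes 22.5% had such groups, 10.8% lower and 11.7% higher. Of the 10 genes 5 were lower on the arrays labelled dKO within each sex (Atp6v1b1, Atp6v0a4, Atp6v1b2, Atp6v1g1 and Atp6v0d1), an order that 17.9% of all genes had and that was counted after the values were seen. A further cluster named only for Atp6v1b2 and 2 named only for Atp6v1g1 were dimmer and not used for the gene. The Atp6v1b2 cluster stood between 5.98 and 7.03 log2, with a difference of -0.46 ± 0.23 (adjusted p = 0.428 with every cluster tested). The Atp6v1g1 clusters differed by -0.46 ± 0.31 and -0.48 ± 0.30 (adjusted p = 0.557 and 0.537). With all clusters of a gene averaged, the difference of Atp6v1g1 was -0.38 (adjusted p = 0.352) and that of Atp6v1b2 -0.37 (adjusted p = 0.152). On both Atp6v1g1 clusters Control 6 stood alone, at 6.24 and 6.38 log2, with the other 5 arrays between 4.96 and 5.46.

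Whether the 2 forms of a subunit changed unequally was read from the difference between paralogues within each array. It cancels only a shift of the same log2 size in both. For the B subunit this difference was 0.03 ± 0.25 higher on the arrays labelled dKO (SE over 3 and 3 arrays; exact two-sided permutation p = 0.7). For G it was 0.23 ± 0.26 higher (exact permutation p = 0.4) and for d 0.13 ± 0.19 higher (exact permutation p = 0.5). For C it was -0.20 ± 0.16 (exact permutation p = 0.4) and for a -0.34 ± 0.19 (exact permutation p = 0.2). The groups overlapped for all 5 pairs, and the p adjusted over the 5 comparisons was 0.625 or 0.7, where 0.1 is the smallest p that 3 against 3 arrays allow. These values pool the sexes, and for B most of the spread lay between them: the males stood at -0.31 (dKO) and -0.37 (Control) and the females between 0.14 and 0.23, on a scale with the Control mean at 0. With sex in the model the SE was 0.03 for B, 0.17 for G, 0.13 for C, 0.21 for a and 0.04 for d, with the same differences. Within each sex, every array labelled dKO lay below every Control array for the a pair and above it for the d pair. Permuting labels within each sex, a test added after the data were seen, gave both pairs an exact two-sided p of 0.167, the smallest it allows. For the other pairs the exact p was 0.333 or 0.5, and no p adjusted over the 5 pairs was under 0.417.

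**Figure D2:**
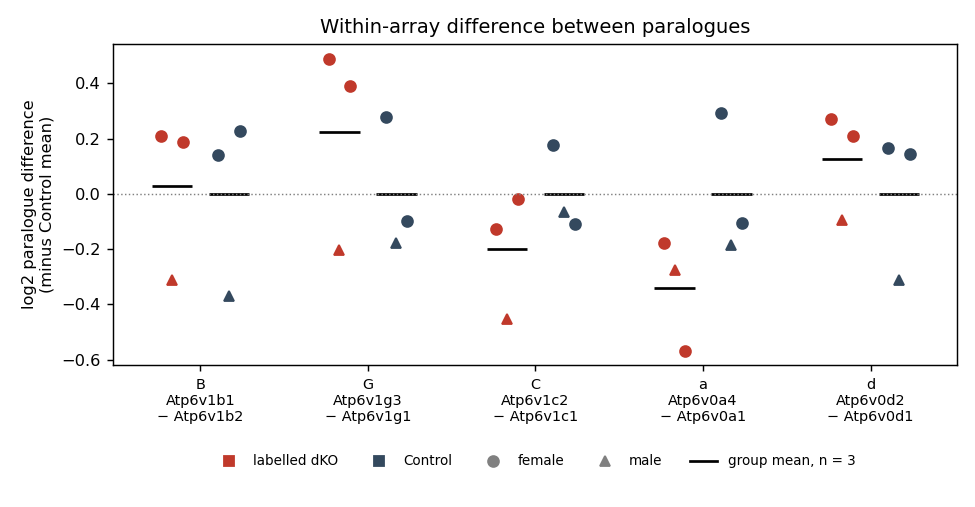
Log2 value of the intercalated-type gene minus that of its ubiquitous paralogue on each array, set to 0 at the mean of the Control arrays, with the arrays labelled dKO left of the Control arrays for each subunit, circles for females, triangles for males and bars for group means (n = 3). The largest group difference is that of the a subunit, -0.34, and the groups overlap in all 5 pairs.

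Males and females were also compared. Both male arrays lay below all 4 female arrays for 3 of the 5 intercalated-type genes, an order that 10.5% of all genes had, and for none of the 5 ubiquitous genes. For 1 ubiquitous gene, Atp6v1c1, both males lay above all females, an order that 1940 of all 22180 genes had. Atp6v1g3 was lower in males by a log2 difference of -0.50 ± 0.12 (SE, adjusted for genotype), Atp6v0d2 by -0.43 ± 0.10 and Atp6v1b1 by -0.42 ± 0.09. None of the 10 genes passed the sex test (limma adjusted p of 0.0957, 0.0873 and 0.0849 for these 3). An unadjusted p under 0.05 was reached by 3 of the 10 and by 3579 of all 22180 genes. Of all genes, 1.87% passed. With the trended robust prior the same test called 3 of the 10, these 3 genes (adjusted p between 0.024 and 0.034). How many of all genes the sex test called with that prior was not counted. The sex difference was -0.18 ± 0.11 for Atp6v0a4 and -0.13 ± 0.12 for Atp6v1c2, and in the ubiquitous genes it lay between -0.09 and 0.11. Of other intercalated cell genes 22 of 22 had a lower estimate in males, against 54.9% of all genes, and 1, Car15, passed (-0.61 ± 0.10; adjusted p = 0.0365). So had 12 of 13 principal cell genes and 16 of 18 macrophage genes, but 0 of 11 proximal tubule genes. The brown fat marker Ucp1 was highest on Control 2 and Control 6, 2 of the 4 female arrays. The part of these other cells in the subunits' sex difference was not tested. With 1 male per group, the sex test sets 2 arrays against 4. No paralogue's genotype difference depended on sex at the threshold (limma interaction adjusted p of at least 0.823, unadjusted p of at least 0.160), where 0.00451% of all genes passed.

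The remaining subunits include those with no intercalated form and further forms of G, E, a and e. Of 7 further V1 subunits none passed, and the log2 differences lay between -0.22 and 0.26 with a median of -0.13. Atp6v1a, the catalytic A subunit, stood at 10.21, 9.93 and 9.99 log2 on the arrays labelled dKO, against 10.17, 10.27 and 10.13 on Control arrays (-0.15 ± 0.08; adjusted p = 0.335). The stalk and rotor subunits Atp6v1d (-0.13), Atp6v1e1 (-0.05), Atp6v1f (-0.16) and Atp6v1h (0.02), the testis form Atp6v1e2 (-0.22) and the neuronal form Atp6v1g2 (0.26) did not pass either. Of 5 further V0 subunits 1 fell and none rose, with a median of -0.04. Atp6v0b (-0.05), Atp6v0e (0.10) and Atp6v0a2 (-0.04) did not pass, and Atp6v0c was not analysed here.

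The fall was in Atp6v0e2 (Entrez gene 76252), an isoform of the small e subunit of V0. It stood at 7.94, 8.03 and 7.98 log2 on the arrays labelled dKO, against 8.36, 8.23 and 8.49 on Control arrays, with no overlap. The log2 difference was -0.38 ± 0.08, or 1.30-fold lower (adjusted p = 0.044). Each of the 6 fits that left out 1 array lost this call (adjusted p up to 0.144). Tcirg1, the a3 form of osteoclasts and macrophages, stood at 6.01, 5.98 and 6.30 against 5.73, 5.86 and 5.70. Its groups did not overlap, and the log2 difference of 0.33 ± 0.11 did not pass (adjusted p = 0.140). Of 18 macrophage markers 12 rose and none fell, where 4.12% of all genes rose. The sum of their linear values, in which bright probes weigh most, lay between 1581 and 2645 on the arrays labelled dKO and between 800.2 and 893 on Control arrays. Of these markers Cd68 rose by 1.27 ± 0.11 and Ctss by 1.69 ± 0.10 on the log2 scale. All 18 estimates lay above 0, as did those of 10738 of all 22180 genes, although only 12 of the 18 passed. Their part in the values of Tcirg1 and of the ubiquitous subunits was not tested.

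Among 16 accessory, assembly and regulatory proteins of the pump, 1 fell, none rose and the median was -0.09. The fall was in Tldc2 (Entrez gene 383766), of the TLDc domain family whose members bind the pump and regulate its assembly. It stood at 7.90, 7.83 and 7.89 log2 on the arrays labelled dKO and at 9.10, 8.77 and 9.44 on Control arrays. The 3 arrays labelled dKO were nearly equal and far below every Control array. Tldc2 was 2.35-fold lower (log2 difference -1.23 ± 0.14, SE; interval -1.57 to -0.89; adjusted p = 0.0079), and it passed in each of the 6 fits that omitted an array (adjusted p no higher than 0.042). Its relatives Ncoa7 (-0.09), Oxr1 (0.02), Meak7 (-0.05) and Tbc1d24 (-0.03) did not pass. Rogdi, a subunit of the mammalian RAVE assembly complex, stood at 7.34, 7.17 and 7.29 against 7.63, 7.55 and 7.79. Its groups did not overlap, and the log2 difference of -0.39 ± 0.10 did not pass (adjusted p = 0.0668). With the trended robust prior it passed (adjusted p = 0.029), as did 2162 of all 22180 genes. The complex's other subunits Dmxl1 (-0.17), Dmxl2 (-0.16) and Wdr7 (0.01) did not pass, nor did the membrane partners Atp6ap1 (0.07) and Atp6ap2 (-0.21). Over all 38 measured pump genes, the 10 paralogues included, 2 passed, or 5.26%, against 7.20% of all genes.

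**Figure D3:**
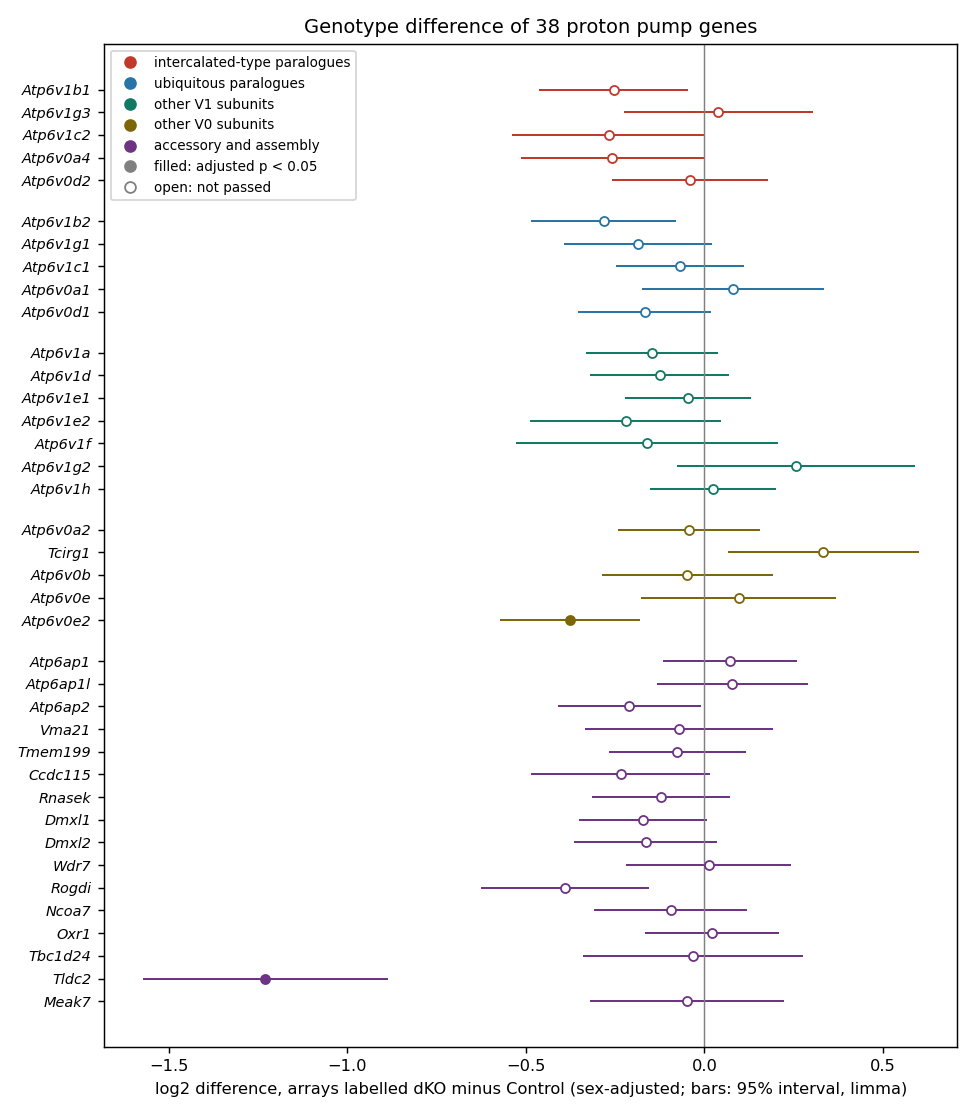
Sex-adjusted log2 difference, arrays labelled dKO minus Control arrays (n = 3 each), for the 38 measured proton pump genes, with limma's 95% intervals, colours for the gene groups and filled symbols for an adjusted p under 0.05. The filled symbols are Atp6v0e2 (-0.38) and Tldc2 (-1.23), and no interval of the 10 paralogues, each on its brightest cluster, reaches below -0.54 or above 0.34.

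The intercalated-type subunits were set beside other genes of the same cells. Of 22 such genes 5 fell and 2 rose, with a median of -0.14, where 3.08% of all genes fell and 4.12% rose. Genes of neighbouring cells fell too: 8 of 13 principal cell genes fell and none rose (median -1.05), and 5 of 11 proximal tubule genes fell and none rose (median -0.34). Foxi1, the forkhead regulator of these cells, stood at 7.79, 8.20 and 7.73 log2 on the arrays labelled dKO and at 7.84, 7.72 and 7.78 on Control arrays. The groups overlapped and its log2 difference was 0.13 ± 0.13 (adjusted p = 0.632). Slc4a1, the basolateral bicarbonate exchanger of the acid-secreting alpha type, stood at 4.46, 4.66 and 4.18 against 7.47, 6.67 and 6.90. It fell by 2.58 ± 0.21 on the log2 scale (adjusted p = 0.0028), where the interval of Atp6v1b1 ended at -0.46 and that of Atp6v0a4 at -0.51. The other falls were in the water channel Aqp6 (-1.98 ± 0.17), the ammonia channels Rhbg (-1.87 ± 0.18) and Rhcg (-1.73 ± 0.14) and the carbonic anhydrase Car12 (-0.62 ± 0.10). The rises were in Dmrt2 (0.76 ± 0.11) and the receptor Kit (0.55 ± 0.08). Of the 6 fits that omitted an array, 4 lost the call of Car12, 3 that of Kit and 1 that of Dmrt2. Markers of the bicarbonate-secreting types, the anion exchangers Slc26a4 (-0.30 ± 0.09) and Slc4a9 (0.22 ± 0.10), did not pass (adjusted p = 0.116 and 0.267), nor did the proton-potassium pumps Atp12a (-0.15) and Atp4a (-0.52; adjusted p = 0.060). Red cells also carry Slc4a1. The erythroid markers measured through a single-symbol cluster, Epb42 and Ermap, had log2 differences of -0.09 and -0.02 and did not pass. Both were dim, with means of 3.37 and 2.82 log2, where the 25th percentile of all gene means is 2.98. They could therefore miss a change in red cells. The other markers of that list, haemoglobins among them, were not measured through such a cluster. The part of red cells in the fall of Slc4a1 was not tested.

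**Figure D4:**
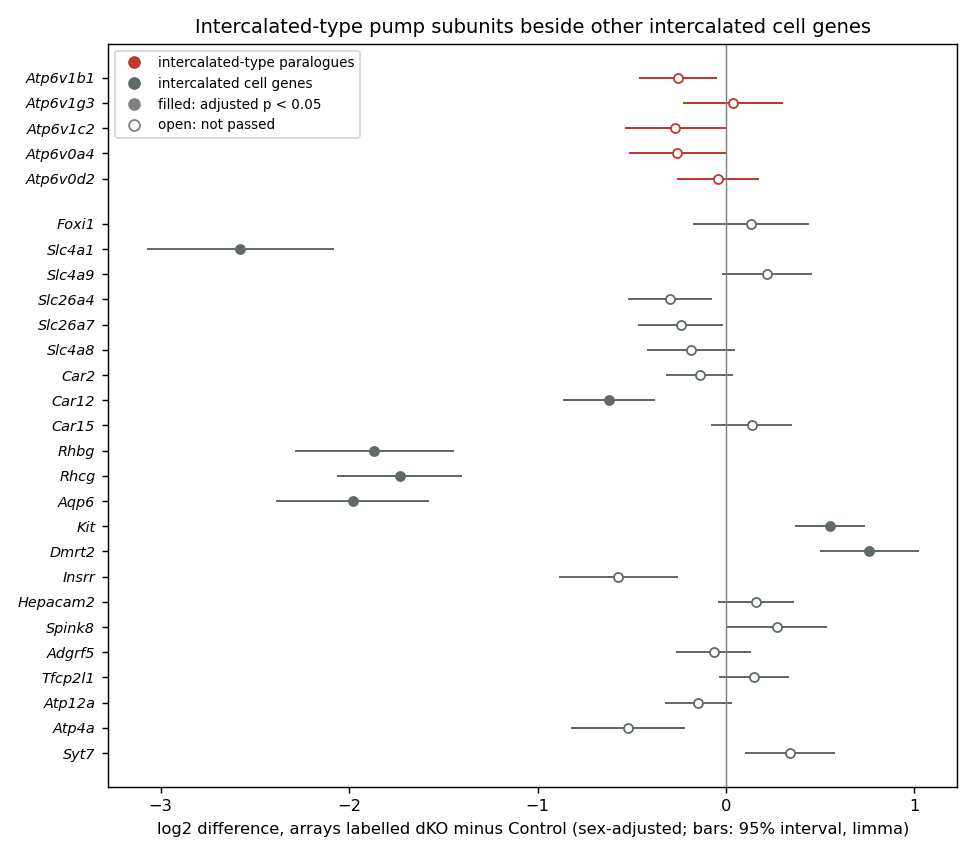
Sex-adjusted log2 difference, arrays labelled dKO minus Control arrays (n = 3 each), for the 5 intercalated-type pump subunits and 22 other intercalated cell genes, with limma's 95% intervals and filled symbols for an adjusted p under 0.05. Slc4a1, Aqp6, Rhbg and Rhcg lie between -2.58 and -1.73, and the 5 pump subunits between -0.27 and 0.04.

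The ubiquitous subunits were set beside the lysosome and its regulators. Of 23 lysosomal genes 2 fell and 1 rose, with a median log2 difference of -0.11, where 3.08% of all genes fell and 4.12% rose. The protease Ctsd rose by 0.92 ± 0.11, while the sialidase Neu1 (-0.70 ± 0.09) and the sulfatase Galns (-0.85 ± 0.10) fell. Galns had overlapping groups and a male-minus-female difference of 1.89, and it did not pass without sex in the model (adjusted p = 0.595). The transcription factors Tfeb (-0.12), Tfe3 (0.09), Mitf (0.07) and Tfec (-0.18) did not pass. Among the 27 pump genes with a promoter sequence, the CLEAR core occurred in 6, where 3.77% of all promoters hold it. These were Atp6v0d1, Atp6v1a, Atp6v0b, Atp6v0e, Vma21 and Ccdc115. The 2 rates are in unlike units. A gene was counted if any of its promoters held the core, and several of the 27 genes have more than 1 promoter.

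The genes whose profile over the 6 arrays was closest to that of Atp6v1b1 were Slc9a4, Cnnm1 and AA986860, with root mean square differences between mean-centred log2 values of 0.033, 0.036 and 0.043. Slc9a4, a sodium-proton exchanger, stood at 4.89, 5.22 and 5.07 log2 on the arrays labelled dKO, against 5.47, 4.98 and 5.55 on Control arrays, so its male Control array was low as for Atp6v1b1. The genes closest to Atp6v1b2 were Btbd2, Xrcc3 and Plekha6 (0.030, 0.030 and 0.032). None of these 6 genes passed between the groups. Such likeness over 6 arrays describes these samples only.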

How the data were processed

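Each of the 6 deposited columns holds 1 array's log2 values, with a value for each transcript cluster. The submitters' processing notes name RMA, limma and R 3.4.0 without their roles. The sources used here do not give the genome build or any filter. Values stayed on the authors' deposited log2 scale (array medians 3.81 to 3.87). Of 41345 clusters, 23521 name 1 gene, 1814 several and 16010 none. Symbols were looked up by gene identifier in RefSeq (23328 matched, none changed), and the brightest cluster per gene was kept, giving 22180 genes.

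Genotype and sex were fitted with limma 3.58.1 in R 4.3.3 across all genes (3 residual and 6.72 total degrees of freedom), with Benjamini-Hochberg adjustment over all genes and a threshold of 0.05. Errors are limma's moderated SE, and folds are 2 to the power of the sex-adjusted log2 difference. The interaction fit has 2 residual degrees of freedom. The fit was tested on data simulated with normal errors and limma's own variance prior. That test does not check whether the arrays meet these assumptions. Paralogue differences were tested by exact permutation over arrays, with permutation within sex added later. The members and lists were chosen with earlier results of these data known. Named genes are all paralogues and subunits, Pax2, Pax8, Foxi1, Slc4a1, Slc4a9, Slc26a4, Tcirg1, up to 4 of each list by p, and the 3 nearest profiles (among genes above the dim limit, the 25th percentile, 2.98 log2) of Atp6v1b1 and Atp6v1b2. Outside this rule, chosen after their values were seen, are Adipoq, Atp12a, Atp4a, Atp6ap1, Car12, Car15, Ccdc115, Dmrt2, Dmxl2, Fabp4, Kit, Meak7, Ncoa7, Oxr1, Slc12a1, Tbc1d24, Umod, Vma21 and Wdr7. Alternatives are given below. The 6 arrays limit the precision, and no batch is labelled.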

Additional observations from a re-analysis of the deposited data

How the results depend on the processing

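Of 150 member results under alternatives, 145 kept their direction and their side of the threshold. These are not 150 separate checks. Leaving out the sex term or dim genes, changing the prior and testing every cluster cannot change a log2 difference, only its p. Averaging clusters changes it only for Atp6v1b2 and Atp6v1g1. Females only and the fits without dKO 1 or Control 4 are 1 fit. The count of paralogues called was 0 under 14 of 15 alternatives and 1, Atp6v1b2, with the trended robust prior. That prior called 2162 of all 22180 genes between the groups, against 1596 in the main fit. It also gave 3 sex calls among the paralogues and 5 calls in the lysosome list. Signs turned only with single arrays left out: for Atp6v1g3 (range -0.066 to 0.12 over the 6 fits), Atp6v0d2 (-0.13 to 0.016), Atp6v0a1 (-0.021 to 0.17) and Foxi1 (-0.012 to 0.26), and for the paralogue differences of B (-0.16 to 0.20) and d (-0.028 to 0.24). Of the 2 other pump genes called, 1 remained, Tldc2, without sex in the model, in females only, with every cluster tested and with any array left out (1 to 1 calls). With the trended robust prior there were 3, Rogdi added. The context lists held 35 calls, 17 with every cluster tested and 19 to 35 with single arrays left out (20 without Control 2, 19 without Control 6). The intercalated list held 7, then 4 and 4 to 8 (4 without Control 6). The macrophage list held 12, then 5 and 6 to 11 (6 without Control 2 or Control 6). The lysosome list held 3, and 1 without sex in the model. Calls over all genes were 1596, with 344 to 1249 when single arrays were left out. In the limma fits, leaving out either male gave the same fit as females only, because the sex term then absorbs the other male. The paralogue differences had no sex term, so leaving out any array left the sexes unequal between the groups. For B the ends of the range, -0.16 and 0.20, were those without Control 4 and without dKO 1, the males. No paired analysis was possible because the groups share no replicate number. With 3 arrays per group, the 95% intervals of the paralogues' brightest clusters reached from -0.54 to 0.34.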
